A study of Rattus norvegicus with 6 samples.

Results

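Potassium channel genes were followed in the skeletal muscle of newborn rats of lower (LBW) and average (ABW) birth weight. The genes were chosen by name, as those whose symbol is Kcn, a letter from a to v and a number. Earlier results of these data were known at that choice. Of 81 such symbols in the rat RefSeq gene table (assembly GRCr8), 65 had a value on the array, and these 65 are among the 26299 genes and unnamed transcripts tested. They fall into 28 voltage-gated, 15 inward rectifier, 6 calcium-activated, 12 two-pore and 4 *Kcne* accessory genes. Families were set by symbol, and the 6 called calcium-activated are the *Kcnn* genes and the related *Kcnt1* and *Kcnt2*. The other 16 symbols, 12 of them voltage-gated, were not analysed here, and these include *Kcna7* and *Kcnc4*.

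All 6 pups were male Wistar rats, 1 day old, without any genetic change or drug treatment, 3 in each group. LBW pups were those with a birth weight in percentiles 5 to 25. For the 3 ABW pups, titled newborn controls, the sample labels give percentiles 25 to 75 and the protocol gives 50 to 75. The soleus and gastrocnemius of each pup were combined, and total RNA of each pup was hybridized with a single dye (Cy3) to 1 NimbleGen array, on which 5 probes stand for a transcript. The labels call the pups biological replicates and do not tie them to litters, so that litter and birth weight cannot be told apart. The LBW pups were not alike over the whole array. Across genes, which are not independent replicates, the log2 signals of LBW 2 had a Pearson correlation of 0.9925 with ABW 1, 0.9913 with LBW 1 and 0.9872 with LBW 3. LBW 3 had its highest correlation with LBW 1 (0.9904) and lay between 0.9842 and 0.9872 with the other pups. Log2 fold changes without LBW 2 are given for the genes that the results turn on.

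Potassium channels let K+ leave the cell and so set the resting potential and end the action potential. Voltage-gated channels open on depolarization, inward rectifiers hold the membrane near rest, calcium-activated channels open when intracellular Ca2+ rises, two-pore channels carry a background leak, and *Kcne* subunits modify voltage-gated pores. In skeletal muscle the inward rectifiers also include the ATP-sensitive channels, which open when ATP falls.

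The mean log2 signals of the 65 genes had a median of 6.65, beside 8.7 over all features. Detection calls were not used here, so the 1184 olfactory receptor genes with a row served as a reference. Their mean log2 signal over the 6 arrays had a median of 5.52 and a 95th percentile of 7.35. Above 7.35 lay 16 of the 65 potassium channel genes (24.6%), compared to 61.5% of all features. By family these were 6 of the 15 inward rectifiers, 5 of the 28 voltage-gated genes, 3 of the 4 *Kcne* genes, 1 of the 6 calcium-activated genes and 1 of the 12 two-pore genes. The number depended on the reference, with 10 above the median of all features and 41 above the 95th percentile (6.34) of 77 vomeronasal and taste receptor genes. Each gene has its own probes, so that the signals of different genes are no order of their RNA amounts. The muscle markers in the same arrays were far above this range, with all 8 marker genes that had a row above 7.35 and *Acta1*, skeletal actin, at 15.34.

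**Figure D1:**
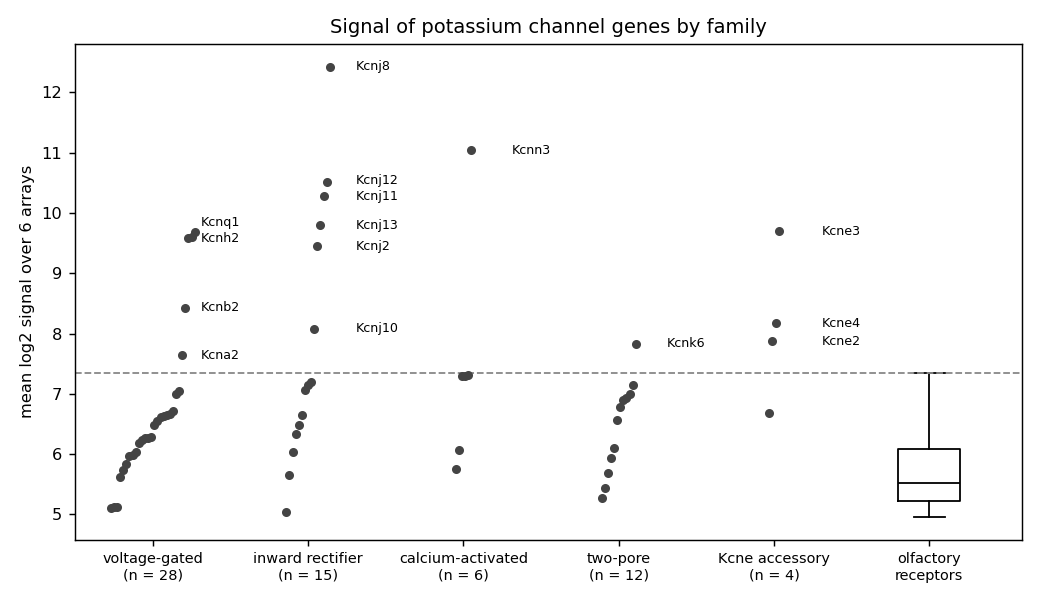
Mean log2 signal over 6 arrays of each of the 65 potassium channel genes (points) by family, with a box for the 1184 olfactory receptor genes (median, quartiles, and whiskers at their 5th and 95th percentiles). The dashed line is their 95th percentile, 7.35, with 16 genes above it, and the genes described in the text are named.

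The inward rectifiers had the most genes above this range. *Kcnj8* (Kir6.1, a pore of the ATP-sensitive channel) was at 12.34, 12.31 and 12.46 in LBW 1, 2 and 3 and at 12.47, 12.38 and 12.61 in ABW 1, 2 and 3. *Kcnj12* (Kir2.2, a pore of the resting K+ current) was between 9.99 and 11.10, *Kcnj11* (Kir6.2, the other ATP-sensitive pore) between 9.92 and 10.71, and *Kcnj2* (Kir2.1, the second resting pore) between 9.09 and 9.79. *Kcnj13* (Kir7.1, known from epithelia) averaged 9.80 and *Kcnj10* (Kir4.1, known from glia) 8.08. Among the voltage-gated genes, the delayed rectifiers *Kcnq1* (Kv7.1) and *Kcnh2* (Kv11.1, or ERG) averaged 9.68 and 9.58, followed by *Kcnb2* (Kv2.2) at 8.43 and *Kcna2* (Kv1.2, known from axons) at 7.64. Of the calcium-activated genes only *Kcnn3* (SK3), a small-conductance channel known from immature and denervated muscle, was above the range, at 11.04. *Kcnk6* (TWIK-2) was the single two-pore gene above it, at 7.83. *Kcne3*, the partner of a fast voltage-gated channel of skeletal muscle, averaged 9.70, *Kcne4* 8.17 and *Kcne2* 7.87.

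Promoters of 41 of the 65 genes were found in the RefSeq promoter table (GRCr8), cut here to the 250 bases before the start. The letters CAGCTG, an E-box that reads the same on both strands and that myogenic factors are known to bind, were in 8 of the 41 (19.5%) and in 12.0% of all 33469 promoters. Of the 8 promoters of genes above the olfactory receptor range, those of *Kcnj2*, *Kcnj13* and *Kcne4* held it. A match is only a run of letters, and no binding was measured. The promoters of *Kcnj2* (chr10:96559975-96560224, plus strand) and *Kcnj8* (chr4:177246549-177246798, minus strand), an inward rectifier pore with the E-box and one without, are shown 5′ to 3′ in the direction of the gene, with CAGCTG in capitals.
Kcnj2: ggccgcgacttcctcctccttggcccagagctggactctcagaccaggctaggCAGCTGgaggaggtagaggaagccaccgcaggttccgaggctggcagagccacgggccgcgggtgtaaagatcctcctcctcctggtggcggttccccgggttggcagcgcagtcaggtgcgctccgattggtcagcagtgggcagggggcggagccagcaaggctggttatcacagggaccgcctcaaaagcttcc
Kcnj8: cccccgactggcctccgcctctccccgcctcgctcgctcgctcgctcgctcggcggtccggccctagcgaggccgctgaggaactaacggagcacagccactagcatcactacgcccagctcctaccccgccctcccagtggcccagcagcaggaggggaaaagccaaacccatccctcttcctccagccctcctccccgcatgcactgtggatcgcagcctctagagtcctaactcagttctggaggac

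The comparison of LBW with ABW pups asked which genes differ by birth weight in newborn muscle. Of the 65 potassium channel genes, 32 were higher and 33 lower in LBW pups, and their median log2 fold change was -0.004, beside -0.023 over all features. Past the threshold of the study, an unadjusted p under 0.05 by limma with a fold change of at least 1.5 (0.585 on the log2 scale), *Kcnh2* rose and *Kcna3* fell. These 2 genes are 3.08% of the 65, and the background is 4.27% of all features (2.38% higher and 1.89% lower in LBW). At an unadjusted p under 0.05 without the fold change criterion there were 10 of 65 (6 higher, 4 lower), or 15.4%, beside 12.4% of all features (5.63% higher, 6.73% lower). The LBW and ABW values did not overlap in 10 genes (8 higher, 2 lower in LBW), or 15.4%, where 17.4% of all features did not (7.27% higher, 10.1% lower). After Benjamini-Hochberg adjustment over all 26299 features limma called 0 of the 65, with 0.264 as their smallest adjusted p, and 0 of all features, and the methods' test also called 0. Of the 16 genes above the olfactory receptor range, 1 was past the threshold of the study (5.52% of features in that range), 6 had an unadjusted p under 0.05 (15.5%) and 6 had groups without overlap (19.4%). Single pups decided part of these calls. The number past the threshold of the study was 1 without LBW 1 (3.03% of all features) or ABW 3 (3.07%), 3 without LBW 2 (5.88%) or ABW 2 (3.36%), 4 without ABW 1 (5.34%) and 5 without LBW 3 (4.65%). Without LBW 2, limma called 0.475% of all features after adjustment and 0 of the 65. The number was 1 by the methods' test (2.22%), 3 after quantile normalization (4.29%), and 2 without the dimmest 25% of features (5.7%), after median centring (4.43%), with an intensity trend (4.78%) and with the replicate block (4.68%). In whole muscle, fewer cells that carry a channel and less of its RNA per cell cannot be told apart.

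**Figure D2:**
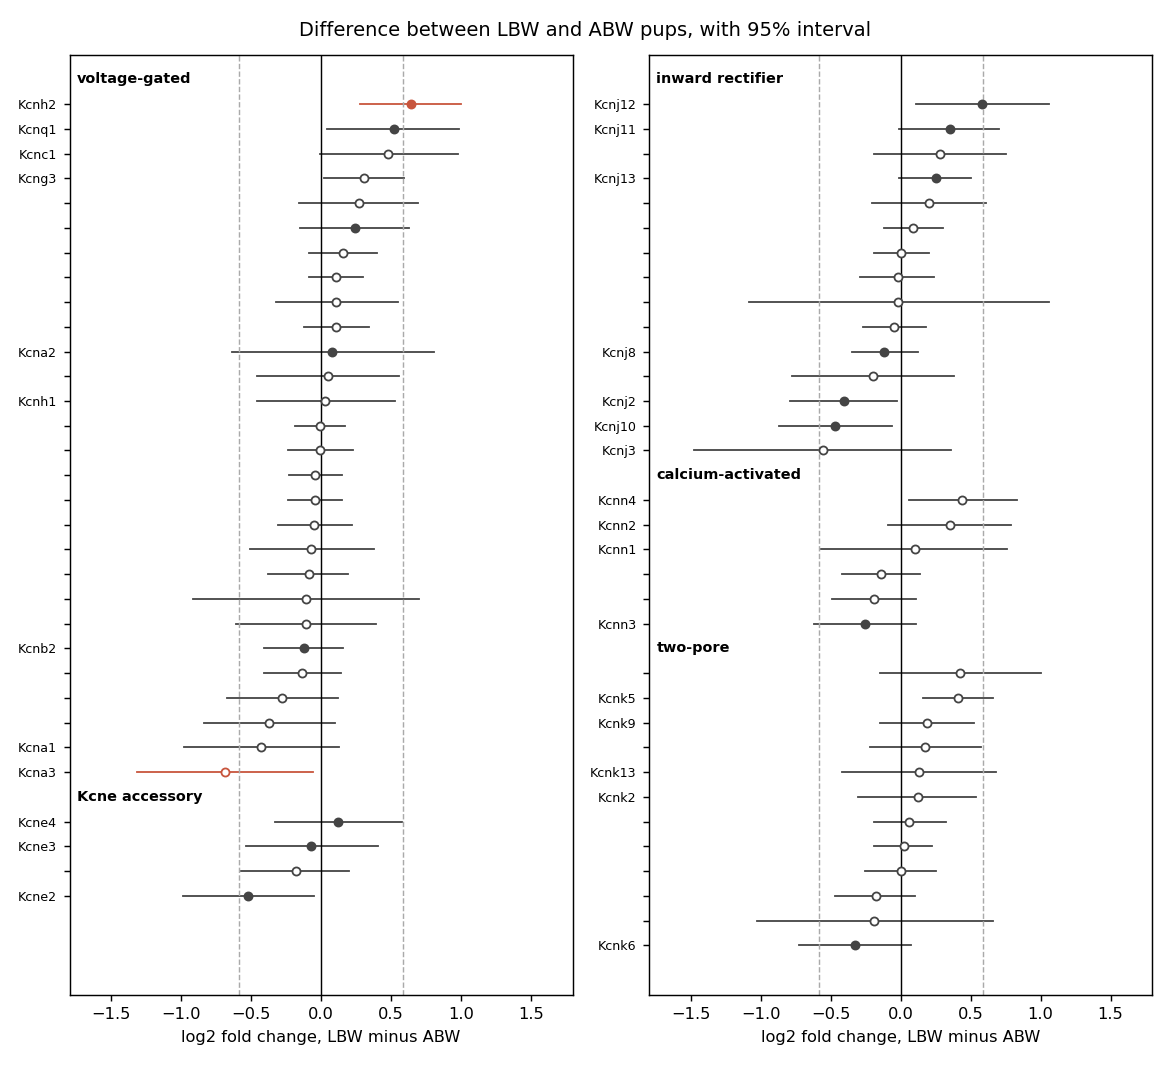
Log2 fold change (LBW minus ABW, 3 pups each) of the 65 potassium channel genes by family, with the 95% interval of the limma fit. Dashed lines mark a fold change of 1.5, filled points are the 16 genes above the olfactory receptor range, and the 2 genes past the threshold of the study, *Kcnh2* and *Kcna3*, are in red. Only genes described in the text are named.

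Each family held genes of both signs. The median log2 fold change was -0.009 over the 28 voltage-gated genes (13 higher), -0.019 over the 15 inward rectifiers (7 higher), -0.024 over the 6 calcium-activated genes (3 higher), 0.089 over the 12 two-pore genes (8 higher) and -0.126 over the 4 *Kcne* genes (1 higher). The related genes *Kcnt1* and *Kcnt2*, counted with the calcium-activated family, gave -0.14 and -0.19. Both genes past the threshold were voltage-gated. Individual genes spanned from -0.69 to 0.64. For 33 of the 65 genes the 95% interval of the fold change lay within 1.5-fold in either direction, compared to 66.6% of all features, and for the other 32 it reached a change of this size. Of the 16 genes above the olfactory receptor range, 5 (31.2%) had such a narrow interval, beside 62.0% of all features in that range. These 5 were *Kcnb2*, *Kcne3*, *Kcne4*, *Kcnj8* and *Kcnj13*.

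*Kcnh2* (NM_053949) encodes the ERG pore, which repolarizes the heart and is known in atrophying skeletal muscle. Its log2 signal was 9.93, 9.96 and 9.81 in LBW 1, 2 and 3 and 9.30, 9.50 and 8.96 in ABW 1, 2 and 3. Every LBW pup lay above every ABW pup, with the LBW pups close together and ABW 3 the lowest. LBW pups averaged 9.90 ± 0.08 and ABW pups 9.26 ± 0.27 (SD, n = 3 each). The log2 fold change was 0.64 (SE 0.15, limma adjusted p = 0.264), a fold change of 1.56. It stayed past the threshold without LBW 2 (0.61) and by the test that the methods name, and lost it without ABW 3 (0.49). Its exact permutation p was 0.1 (2-sided), the smallest that 3 pups against 3 allow.

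*Kcna3* (NM_019270), which encodes Kv1.3, the main voltage-gated channel of T lymphocytes, was the other gene past the threshold. It was at 5.93, 6.04 and 6.83 in LBW 1, 2 and 3 and at 7.10, 6.66 and 7.11 in ABW 1, 2 and 3. LBW 3 was above ABW 2, so the groups overlapped, and all 6 values were below the olfactory receptor limit of 7.35. The log2 fold change of -0.69 (SE 0.26, limma adjusted p = 0.375) was no longer past the threshold by the methods' test or without LBW 1 (-0.52), LBW 2 (-0.57), ABW 1 (-0.62) or ABW 3 (-0.61). *Kcna2*, its neighbour on the chromosome, averaged 7.69 ± 0.63 and 7.60 ± 0.15 (SD, n = 3 each), with LBW 3 (7.03) and LBW 2 (8.27) below and above all ABW pups. *Kcna1* (Kv1.1, of axons) had a log2 fold change of -0.43 (SE 0.23) at signals between 6.37 and 7.58, with overlapping groups, and -0.57 without LBW 2. Of the 6 neuronal markers, *Tubb3*, a tubulin of neurons, fell by 0.61 on the log2 scale past the threshold of the study, with 9.30, 9.20 and 9.54 in LBW and 9.79, 10.08 and 9.99 in ABW pups. *Stmn2* gave -0.66 (SE 0.36) and *Nefm*, at a mean signal of 7.89, gave 0.02, while *Snap25*, *Syt1* and *Nefl* were below 7.35 and gave 0.04, 0.03 and 0.11. The part of nerve in the values of *Kcna1* and *Kcna2* was not tested.

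Among the other voltage-gated genes, *Kcnq1* (NM_032073), the pore of the slow delayed rectifier, had a log2 fold change of 0.52 (SE 0.20, limma adjusted p = 0.375). It was at 10.05, 9.96 and 9.79 in LBW and at 9.84, 9.32 and 9.09 in ABW pups, so that LBW 3 fell below ABW 1. Its fold change passed the threshold without LBW 3 (0.59) and without ABW 1 (0.73), and was 0.50 without LBW 2. *Kcnc1* (Kv3.1, a fast delayed rectifier) gave 0.48 (SE 0.21) at a mean signal of 6.55, and passed without the same pups. *Kcnh1* (EAG1, known for its part in myoblast fusion) averaged 6.25 ± 0.21 and 6.22 ± 0.36 (SD, n = 3 each), within the olfactory receptor range. *Kcng3*, counted with the voltage-gated genes and named after its values were seen, was higher in every LBW pup by a small margin. Its log2 fold change was 0.31 (SE 0.12) at signals of 5.97 to 6.52.

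**Figure D3:**
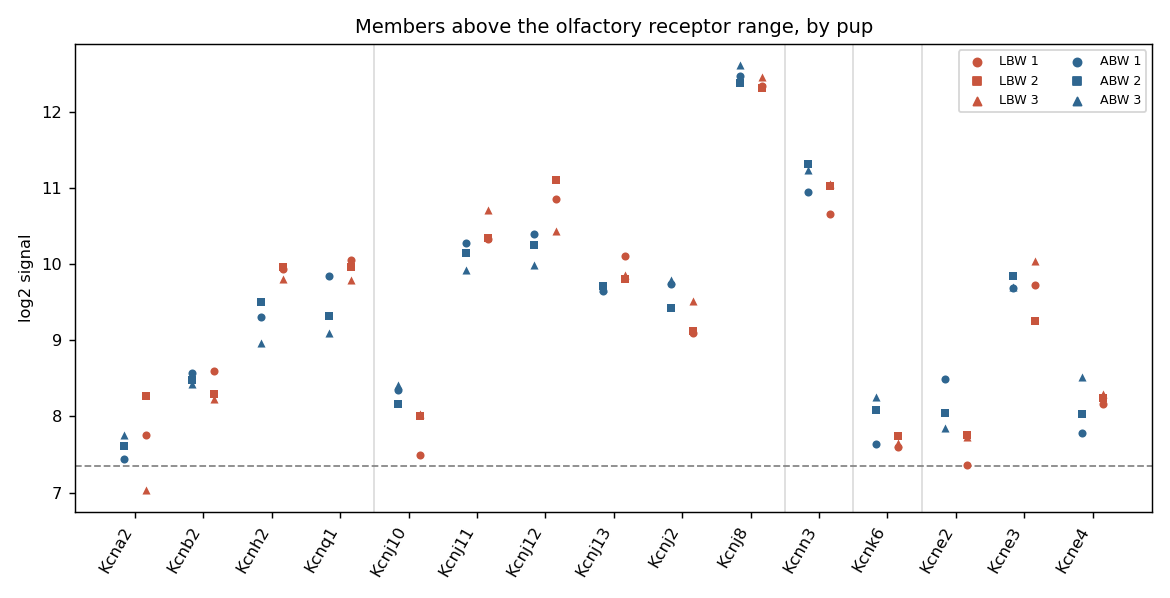
Log2 signal in each pup (symbols; LBW in red, ABW in blue) of 15 potassium channel genes above the olfactory receptor range, whose limit is the dashed line. LBW and ABW points are apart for *Kcnh2*, *Kcnj10*, *Kcnj11*, *Kcnj12*, *Kcnj13* and *Kcne2* and overlap for the other 9 genes.

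The inward rectifiers had values of both signs. *Kcnj12* (NM_053981) was at 10.86, 11.10 and 10.43 in LBW 1, 2 and 3 and at 10.40, 10.25 and 9.99 in ABW 1, 2 and 3. Every LBW pup was above every ABW pup, but LBW 3 exceeded ABW 1 by only 0.02. The log2 fold change was 0.58 (SE 0.20, limma adjusted p = 0.336), just short of the 0.585 of the threshold. It passed the threshold after quantile normalization (0.59) and without LBW 3 (0.77), ABW 1 (0.68) or ABW 2 (0.60), and was 0.43 without LBW 2. *Kcnj2* (NM_017296), which encodes the other resting pore, had the opposite sign. Its signal was 9.09, 9.12 and 9.51 in LBW and 9.74, 9.42 and 9.79 in ABW pups, with LBW 3 above ABW 2. The log2 fold change was -0.41 (SE 0.16, limma adjusted p = 0.377), short of the fold change of the threshold, and -0.35 without LBW 2. Within each pup, the signal of *Kcnj12* minus that of *Kcnj2* was 1.78, 1.98 and 0.91 in LBW 1, 2 and 3 and 0.66, 0.83 and 0.20 in ABW 1, 2 and 3. This difference was computed after the values of both genes were seen and is given as a description. It was larger in every LBW pup.

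The ATP-sensitive channel is built from a pore (*Kcnj8* or *Kcnj11*) and a sulphonylurea receptor (*Abcc8* or *Abcc9*). *Kcnj11* (NM_031358) was at 10.33, 10.34 and 10.71 in LBW and 10.28, 10.14 and 9.92 in ABW pups. The groups did not overlap, although LBW 1 and ABW 1 differed by only 0.05, and the log2 fold change was 0.35 (SE 0.15, limma adjusted p = 0.416) and 0.40 without LBW 2. *Kcnj8* differed by -0.12, with a 95% interval from -0.35 to 0.12 that excludes a change of 1.5-fold, and *Abcc9* by -0.12 with an interval from -0.33 to 0.09. *Abcc8* gave -0.18 (SE 0.19).

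*Kcnj10* (NM_031602) was lower in each LBW pup, with 7.49, 8.0 and 8.03 compared to 8.35, 8.16 and 8.41 in ABW pups. Its log2 fold change was -0.47 (SE 0.17, limma adjusted p = 0.352), which did not reach the fold change of the threshold, and -0.55 without LBW 2. The Schwann cell markers, of which all 5 had a row and lay above 7.35, had a median log2 fold change of 0.01. *Kcnj13* gave 0.25 (SE 0.11) with separate groups. *Kcnj3* (Kir3.1, gated by G proteins) gave -0.56, the lowest value of the family, but with SE 0.38, since ABW 1 was at 7.70 and the other ABW pups at 6.79 and 6.32.

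*Kcnn3* (NM_019315) was at 10.66, 11.02 and 11.05 in LBW and 10.94, 11.31 and 11.24 in ABW pups. The groups overlapped and the log2 fold change was -0.26 (SE 0.15, limma adjusted p = 0.541), or -0.31 without LBW 2. The other calcium-activated genes were at or below 7.35 on average. Of these, *Kcnn4* (NM_023021), the intermediate-conductance channel of blood cells, was at 7.50, 7.34 and 7.69 in LBW and 6.79, 7.09 and 7.32 in ABW pups. LBW 2 was above ABW 3 by 0.03, and the log2 fold change was 0.44 (SE 0.16, limma adjusted p = 0.356), or 0.53 without LBW 2. *Kcnn2* (SK2) gave 0.35 (SE 0.18) and *Kcnn1* (SK1) 0.10 (SE 0.28), with LBW 1 at 6.70 and the other LBW pups at 7.62 and 7.79.

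Of the 12 two-pore genes, 11 averaged below 7.35. *Kcnk6* was at 7.60, 7.74 and 7.65 in LBW and 7.64, 8.08 and 8.26 in ABW pups, a log2 fold change of -0.33 (SE 0.17, limma adjusted p = 0.478). *Kcnk5* (TASK-2, NM_001039516), named after its values were seen, was at 7.06, 7.04 and 7.30 in LBW and 6.82, 6.70 and 6.66 in ABW pups. The groups were separate, and the log2 fold change of 0.41 (SE 0.11, limma adjusted p = 0.279) was below the fold change of the threshold at a signal under 7.35. *Kcnk1* (TWIK-1), named for the same reason, gave 0.42 (SE 0.24) at a mean signal of 6.56 and passed the threshold of the study without LBW 2. *Kcnk9* (TASK-3) and *Kcnk13* (THIK-1) gave 0.19 and 0.13. The 2 rows of *Kcnk2* (TREK-1, a mechanosensitive leak channel) disagreed, with -0.10 (SE 0.24) for NM_172041 and 0.33 (SE 0.12) for NM_172042.

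The *Kcne* subunits *Kcne3* and *Kcne4* gave -0.07 and 0.12, with 95% intervals from -0.54 to 0.41 and from -0.33 to 0.58. *Kcne2* (NM_133603) was at 7.36, 7.75 and 7.73 in LBW and 8.49, 8.05 and 7.85 in ABW pups. All LBW pups were below all ABW pups, and the log2 fold change was -0.52 (SE 0.19, limma adjusted p = 0.366). It passed the threshold without LBW 2 (-0.59) and without ABW 3 (-0.66).

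Genes that work with these channels but fall outside the name rule were examined as a list of 22, of which 18 had a row. Past the threshold of the study, 2 rose and 1 fell (16.7% of the 18, beside 4.27% of all features). In all, 7 of the 18 were higher in LBW pups, and the median log2 fold change was -0.093. *Kcnma1*, the pore of the large-conductance calcium-activated channel, was at 11.18, 10.85 and 11.13 in LBW and at 10.62, 9.92 and 10.34 in ABW pups. The groups were separate by 0.23, and the log2 fold change was 0.76 (SE 0.19, limma adjusted p = 0.276), a fold change of 1.69. Its call was lost only without ABW 2 (0.57) among the pups left out, and the value was 0.86 without LBW 2. Of its accessory subunits, *Kcnmb1*, known from smooth muscle, gave 0.41 (SE 0.25), whereas *Kcnmb2* and *Kcnmb4* gave -0.31 and -0.01. All 3 smooth muscle markers with a row were above 7.35, and their median log2 fold change was 0.02.

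Kv4 channels (*Kcnd* genes) carry a transient current together with KChIP and DPP subunits. *Kcnip2* (KChIP2) was at 6.25, 7.13 and 6.27 in LBW and at 7.38, 7.62 and 8.04 in ABW pups, and the groups did not overlap. These are averages of 3 rows, and all LBW values and the mean of all pups (7.12) were below the olfactory receptor limit of 7.35, although the row NM_020094 alone averaged 7.92. Its log2 fold change was -1.13 (SE 0.28, limma adjusted p = 0.275), and it kept its call with any pup left out (-1.42 to -0.95). The study listed this gene from the same arrays, so the value is not independent evidence. Each of its 3 rows was lower in LBW pups, with log2 fold changes of -0.88, -1.24 and -1.28. *Dpp6* rose by 0.88 (SE 0.32, limma adjusted p = 0.356) in spite of overlapping groups, with 9.48, 9.19 and 8.67 in LBW and 8.76, 8.27 and 7.66 in ABW pups. Its call was lost without LBW 1 (0.70), LBW 2 (0.84), ABW 2 (0.90) or ABW 3 (0.60) and by the methods' test. The Kv4 pores with a row, *Kcnd2* and *Kcnd3*, gave 0.27 and -0.37 at mean signals of 6.19 and 6.63. *Kcnab1*, a beta subunit of Kv1 channels, gave 0.42 (SE 0.11, limma adjusted p = 0.277) with separate groups and did not reach the fold change of the threshold.

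**Figure D4:**
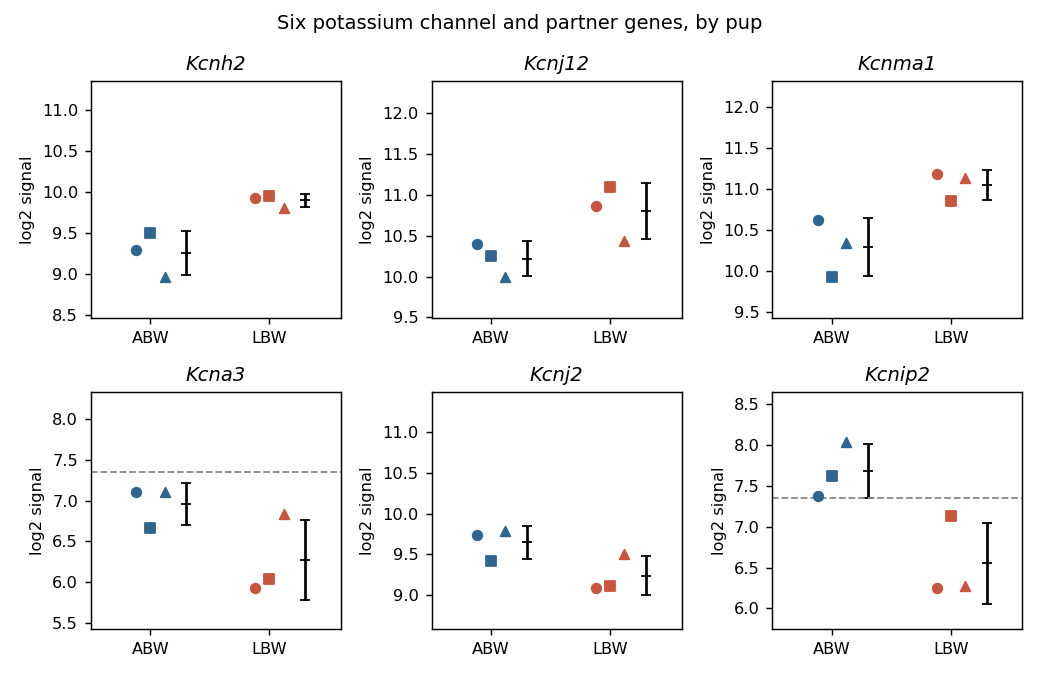
Log2 signal by pup (circle 1, square 2, triangle 3) of *Kcnh2*, *Kcnj12* and *Kcnma1*, higher in each LBW pup, and of *Kcna3*, *Kcnj2* and *Kcnip2*, lower on average. Bars are mean ± SD of 3 pups, and the dashed line is the olfactory receptor limit of 7.35. This limit lies within the axis only for *Kcna3* and *Kcnip2*. Each vertical axis spans the same range of log2 units without starting at 0.

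Markers of other tissues moved in the same arrays. All 8 bone markers with a row were higher in LBW pups (5 past the threshold), and their mean, relative to the ABW mean, was 3.37, 0.68 and 4.43 in LBW 1, 2 and 3. Their highest mean signal over the LBW pups was that of *Ibsp* (12.56). In LBW 1, 2 and 3 *Kcnh2* was at 9.93, 9.96 and 9.81 and *Kcnma1* at 11.18, 10.85 and 11.13. The same relative means were 1.45, 0.16 and 2.31 for 4 osteoclast markers (2 higher past the threshold, *Ctsk* highest, 13.18). They were 0.94, -0.15 and 1.6 for 4 cartilage markers (1 higher past the threshold, *Col2a1* highest, 13.78). For 4 macrophage and neutrophil markers they were 1.27, 0.60 and 1.46 (*Cd68* highest, 12.26). The last list was carried by the neutrophil genes *S100a8* and *S100a9*, which rose by 2.05 and 2.19 on the log2 scale past the threshold of the study, whereas *Cd68* and *Cd14* gave 0.07 and 0.14 with overlapping groups. *Kcnn4* was higher and *Kcna3* lower in LBW pups. None of the 5 adipocyte markers was higher, and 2 were lower past the threshold, *Pparg* (-1.20) and *Lep* (-1.57). The relative mean of the 5 was -0.73, -0.71 and -1.58 in LBW 1, 2 and 3 and also -0.73 in ABW 1 (*Fabp4* highest, 14.82). The 3 heart muscle markers were all higher in LBW pups (median 0.36, 0 past the threshold), with relative means of 0.31, 0.35 and 0.26 in LBW 1, 2 and 3 and 0.09, 0.0 and -0.09 in ABW 1, 2 and 3. Of these markers *Tnni3* (highest, 10.08) gave 0.55 (SE 0.17), *Myh6* 0.36 (SE 0.12) and *Nppa*, of the atrium, 0.01 at a signal of 5.29, within the olfactory receptor range. Each of the 3 skin markers averaged below 7.35, with a relative mean of 1.37 in ABW 2 and between -0.85 and -0.52 in the other 5 pups. The median log2 fold change was 0.03 for 8 skeletal muscle, 0.03 for 6 neuronal and -0.03 for 2 endothelial markers. The part of these tissues in the values of the channel genes was not tested.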

How the data were processed

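Each of the 6 pups (3 LBW, 3 ABW) was measured on 1 single-colour array. The authors deposited normalized log2 values for 26419 transcripts. The methods name in-house R scripts and Bioconductor, and the submitters' processing notes name RMA, with its settings not given in the sources used here. Array medians were between 8.695 and 8.757. Arrays carry no count depth, and their number limits the precision.

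Of the rows, 9747 (36.9%) were named by RefSeq accession (GRCr8 table, whose gene coordinates were not used because the array follows RGSC3.4). Rows of a symbol were averaged, as 3 of the 65 members needed, which left 26299 features. The difference LBW minus ABW was tested by moderated linear models (limma 3.58.1, R 4.3.3), 2-sided, with Benjamini-Hochberg adjustment over all features. The fit was tested on simulated data, but no outcome of that test is reported here. The same-numbered pups did not deviate together (correlations 0.0874, 0.104 and 0.0552), so pups were not paired.

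Genes named are those past the threshold, the 5 largest rises and falls, the 3 strongest signals of each family and genes known from muscle. Genes named outside this rule, those of the signal description among them, were chosen after their values were seen. The members and lists were chosen with earlier results of these data known. Some genes that the rule names are not reported here.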

Additional observations from a re-analysis of the deposited data

How the results depend on the processing

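The number of potassium channel genes past the threshold of the study, 2, was also 2 after centring each array on its median, without the dimmest 25% of features, with an intensity trend, with the strongest row of each symbol and with the replicate block. It was 3 after quantile normalization and 1 by the methods' test. Without any 1 pup it lay between 1 (without LBW 1 or ABW 3) and 5 (without LBW 3). After adjustment it was 0 under all of these settings. The median log2 fold change of the 65 genes lay between -0.023 and 0.039 over the pups left out. It was 0.035 without the dimmest features, which removed 20 of the 65 genes. The same filter gave 0.223 for the calcium-activated and 0.173 for the two-pore genes, because fewer genes remained. Over the pups left out, the family medians lay between -0.029 and 0.049 (voltage-gated), -0.018 and 0.060 (inward rectifiers), -0.105 and 0.068 (calcium-activated), 0.005 and 0.133 (two-pore) and -0.240 and -0.017 (*Kcne*). Genes without overlap were 9 or 10 under the other normalizations and filters, and between 14 and 27 without any 1 pup, where separation is easier with fewer values. Above the olfactory receptor range were 16 or 17 genes without any 1 pup, 10 with the array median as the limit and 41 with vomeronasal and taste receptors, the limits being higher and lower. Small values turned sign over the pups left out, with *Kcne3* between -0.25 and 0.14, *Kcne4* between -0.04 and 0.33, *Kcnh1* between -0.15 and 0.22, *Kcnk2* between -0.02 and 0.31, *Kcnk13* between -0.14 and 0.31 and *Kcnn1* between -0.11 and 0.43. None of these was past the threshold. The replicate numbers did not pair the pups. With the replicate block, limma called 1230 of all features instead of 1124 and the same 2 potassium channel genes. Background signal was not analysed here, which limits what a low value means.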

Other observations

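Other genes of muscle excitability, examined as a list of 15 of which 13 had a row, were mostly higher in LBW pups. Of the 13, 11 were higher and 2 lower, and their median log2 fold change was 0.25, beside -0.023 over all features. By pup, their mean relative to the ABW mean was 0.12, 0.34 and 0.14 in LBW 1, 2 and 3 and 0.15, 0.07 and -0.23 in ABW 1, 2 and 3, so that ABW 1 was within the LBW values. *Scn4a*, the sodium channel of mature muscle, gave 0.25 (SE 0.19). *Clcn1*, the chloride channel of muscle fibres, gave 0.02 with a 95% interval from -0.38 to 0.42. The fetal acetylcholine receptor subunit *Chrng* gave 0.36 (SE 0.21).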
